A study of Mus musculus with 6 samples.

Results

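Genes of the integrated stress response and of the endoplasmic reticulum (ER) stress response were examined in mouse haematopoietic stem cells with and without induction of the leukaemia fusion ETV6-RUNX1, in separate groups of libraries. The set was a hand-made list of 36 gene symbols, drawn up with earlier results of these data known, which matched 37 gene IDs of the 55471 in the table because Ddit3 has a second, overlapping ID. All 6 libraries came from mice of the ETV6-RUNX1 genotype, whose transgene can be switched on with doxycycline. The uninduced group (n = 3) received no doxycycline, and the induced group (n = 3) received doxycycline food for 2 weeks. Stem cells were taken by flow sorting on Kit, Sca1 and CD150, in the absence of lineage markers and of CD48. The promoter that drives the transgene, the age and sex of the mice and any pooling of animals are not given in the labels, so p-values measure the spread between libraries. No mice given doxycycline without the transgene were analysed here, so induction and the drug cannot be told apart.

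The integrated stress response starts at a family of kinases that phosphorylate the translation factor eIF2: HRI, PKR, PERK and GCN2, which sense haem or mitochondrial trouble, double-stranded RNA, unfolded protein in the ER, and lack of amino acids. Phosphorylated eIF2 slows protein synthesis in general while it favours translation of Atf4, the transcription factor that then switches on amino acid synthesis, amino acid uptake and feedback genes. Since Atf4 is set mainly at translation, its transcript level need not follow its protein. The ER stress response uses PERK together with IRE1 (Ern1) and ATF6, and raises chaperones such as BiP (Hspa5). Blood stem cells are known for slow protein synthesis and for strong reliance on these pathways.

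Values were TPM, StringTie's relative transcript abundance, which are corrected for transcript length. Levels may thus be compared between genes, with less certainty where a gene has copies or overlaps another gene. Sequencing depth was unknown. Nuclear protein-coding genes held 26.6 to 32.9% of the TPM in uninduced libraries and 20.5 to 23.2% in induced libraries, and microRNA-type genes held 18.6 to 30.1% and 33.9 to 41.2%. Among 13470 tested genes, the median change was -0.35 on this scale. Changes are therefore given also after median-of-ratios scaling, which divides each library by its median ratio to the average library and brought the median change to -0.0029. Changes are induced minus uninduced on log2(TPM + 1), and a gene is said to have risen or fallen on a scale where limma gave an adjusted p under 0.05 over all genes tested. A lower level in bulk RNA cannot be told apart from fewer cells that express the gene.

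The sequences below are shown because Atf4 with its C/EBP partners and the ER stress factors are known to act through short promoter elements. The C/EBP-ATF response element was searched as TGATGNAA. The ER stress element was searched as CCAAT and CCACG with 9 bases of any kind between them, and its second form as ATTGG and CCACG with 1 base between them. The search covered both strands of the RefSeq windows from 250 bases before to 50 after each gene start (GRCm38.p6). Of the stretches below, those of Hspa5, Asns and Vldlr overlap an annotated exon, and those of Herpud1, Slc7a11 and Atf3 do not. In the stretches below, written 5′ to 3′ on the gene's strand, capitals mark the match.
Hspa5, ER stress element, chr2:34772019-34772048 (+): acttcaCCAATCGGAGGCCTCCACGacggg
Herpud1, ATF element then second-form ER stress element, chr8:94386307-94386396 (+): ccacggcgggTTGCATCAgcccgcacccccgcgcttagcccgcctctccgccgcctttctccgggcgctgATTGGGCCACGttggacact
Slc7a11, paired ATF elements, chr3:50443645-50443684 (-): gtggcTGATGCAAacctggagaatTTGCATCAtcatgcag
Asns, ATF element, chr6:7693214-7693243 (-): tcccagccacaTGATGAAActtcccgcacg
Atf3, ATF element, chr1:191183425-191183454 (-): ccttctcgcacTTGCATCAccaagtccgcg
Vldlr, ATF element, chr19:27216809-27216838 (+): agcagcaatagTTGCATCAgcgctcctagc

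Of the 33 members with a promoter in the table, 10 held the ATF element (Atf3, Chac1, Trib3, Slc7a11, Asns, Nupr1, Herpud1, Pycr1, Pck2 and Vldlr), or 30.3%, against 4.51% of all 27025 genes with a promoter. The ER stress element was found in Hspa5 and its second form in Herpud1, against 0.137% and 0.0444% of all genes. The list was hand-made and holds known Atf4 and ER stress genes, so its higher shares cannot be read as a result of these data. A match is a description of letters and not a binding site.

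Of the 36 genes, 30 reached a mean of 1 TPM and were tested. On the deposited scale 9 passed, 8 lower and 1 higher, where 11.5% of all tested genes passed, 10.2% lower and 1.29% higher. After median-of-ratios scaling 7 passed, 5 lower and 2 higher, where 6.04% of all tested genes passed, 3.21% lower and 2.84% higher. Phgdh, Shmt2, Slc7a5, Slc7a1 and Hspa5 fell on both scales, Xbp1 rose on both, and Atf4, Psat1 and Aldh18a1 were lower on the deposited scale alone. All induced libraries lay below all uninduced ones for 13 of the 30 and above them for 4, where this held for 28.2% and 4.83% of all tested genes, 33.1% together. The median change of the 30 was -0.54 on the deposited scale and -0.18 after scaling. Calls in both directions thus stood side by side: 4 of 8 tested amino acid and one-carbon enzymes and 2 of 3 tested transporters fell on the deposited scale, none of the 5 sensors in the set passed, and Xbp1 rose. Without induced replicate 2 the deposited count was 5 lower and 0 higher, where 527 and 84 of 13557 tested genes were. With a library left out after scaling 3 to 5 members passed, where 331 to 472 of 13384 to 13557 tested genes did.

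**Figure D1:**
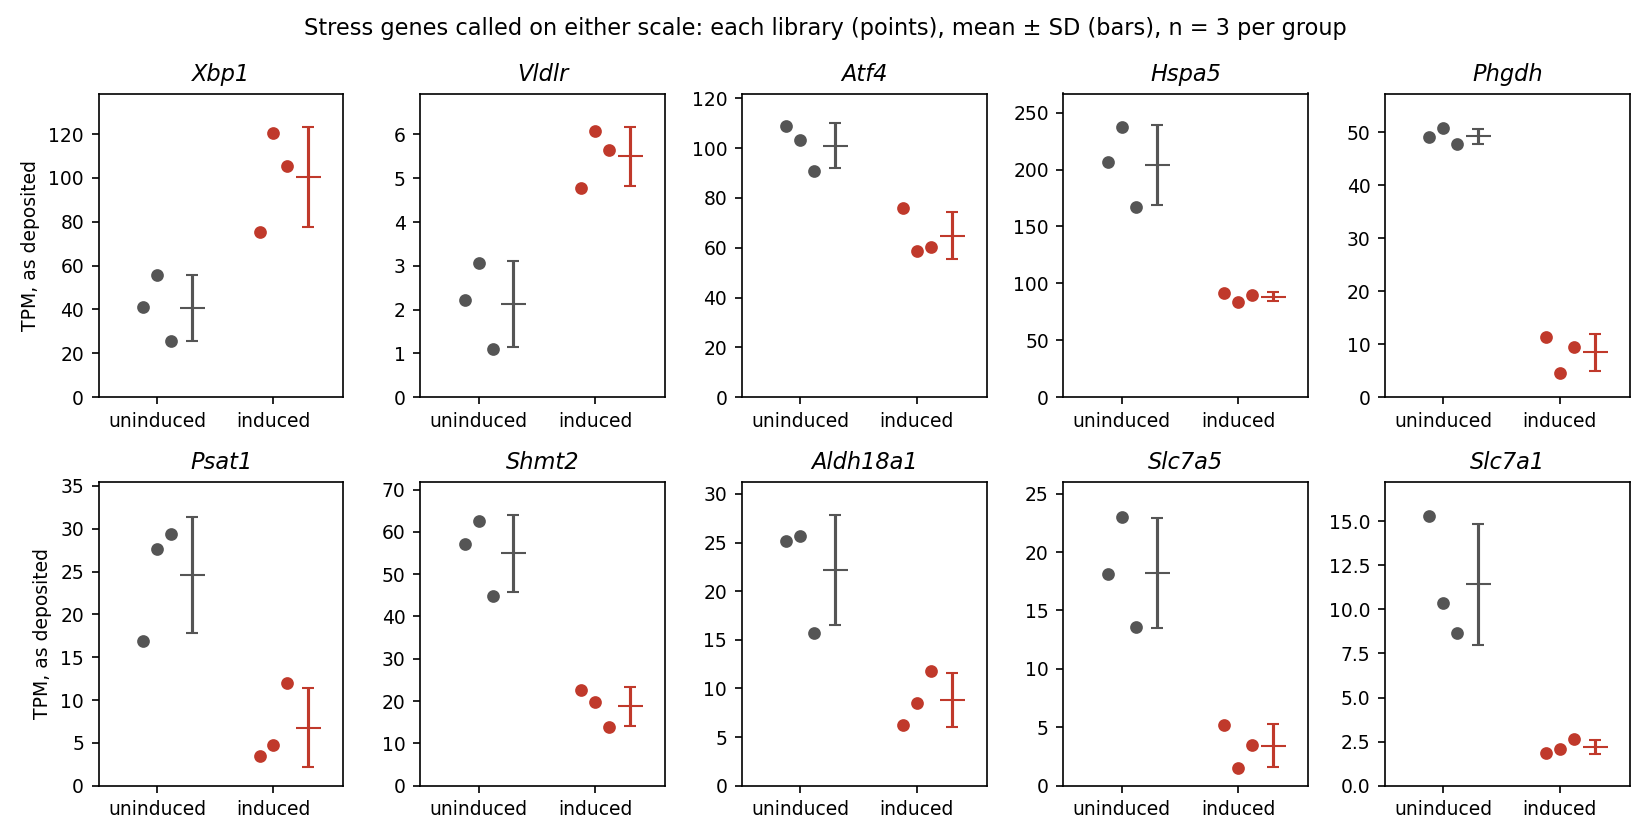
TPM (y axis, from 0) of the 10 stress genes that passed the test on the deposited or the median-of-ratios scale, in the 3 uninduced (grey) and 3 induced (red) libraries, with mean ± SD beside the points. In each panel the 2 groups do not overlap. Xbp1 and Vldlr are high in induced libraries and the other 8 are low.

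None of the 5 sensors in the set passed limma's test on either scale. At an unadjusted p under 0.05 there were 0 on the deposited scale and 1 after scaling, where 27.9% and 21.8% of all tested genes were. Eif2ak1, which encodes HRI (chr5:143817788-143904251), was at 16.6, 17.9 and 13.8 TPM in uninduced libraries and 14.9, 18.1 and 16.6 TPM in induced libraries, which gave a change of 0.040 on the log2 scale (SE 0.23, limma adjusted p 0.931) and of 0.42 after scaling (adjusted p 0.283). Eif2ak3, which encodes PERK (chr6:70844515-70905245), was at 6.31, 7.97 and 5.94 TPM and then 7.73, 6.48 and 6.02 TPM, a change of 0.0043 (SE 0.29, limma adjusted p 0.995) and of 0.35 after scaling (adjusted p 0.501). In both genes the groups overlapped. Exons of Eif2ak1 overlap those of Aimp2 on the opposite strand, which was at 7.91 to 18.7 TPM, and whether the counting used strand is not given. Eif2ak4, which encodes GCN2 (chr2:118388618-118475234), was at 12.1, 10.8 and 13.6 TPM and then 6.22, 6.98 and 11.9 TPM, with 1 induced library inside the uninduced range (change -0.53, SE 0.30, limma adjusted p 0.289). Its change after scaling was -0.17 (limma adjusted p 0.793).

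Ern1 (chr11:106394650-106487852), the ER kinase and nuclease that splices Xbp1 mRNA, was at 17.8, 17.1 and 17.1 TPM in uninduced and 19.8, 23.2 and 21.4 TPM in induced libraries. All induced libraries lay above, by 1.24-fold in the mean, but the change did not pass (0.29, SE 0.21, limma adjusted p 0.406, and 0.67, SE 0.20, adjusted p 0.0882 after scaling). Atf6 (chr1:170704674-170867771), a membrane-bound factor freed by cleavage, was at 7.15, 6.15 and 5.08 TPM and then 4.64, 5.77 and 5.88 TPM, with overlapping groups. Its change was -0.14 (SE 0.30, limma adjusted p 0.796) on the deposited scale and 0.20 (adjusted p 0.743) after scaling.

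Among the transcription factors, Atf4 (chr15:80255184-80257541) was at 109, 103 and 91.0 TPM in uninduced and 75.8, 58.6 and 60.2 TPM in induced libraries. It fell on the deposited scale by 0.64 (SE 0.17, limma adjusted p 0.0443) and did not pass after scaling (-0.24, SE 0.15, adjusted p 0.404). The deposited call was lost when any library was left out (limma adjusted p 0.0514 to 0.148), when all genes above 0 were tested (0.0711) and without the variance trend (0.140). Atf4 remained an abundant transcript in both groups, several times the level of Ddit3.

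Ddit3 (CHOP; chr10:127290774-127296288), the factor linked to death under lasting ER stress, was at 13.7, 11.1 and 23.6 TPM in uninduced and 22.1, 16.8 and 22.5 TPM in induced libraries. The groups overlapped because uninduced replicate 3 was the highest of the 6, and the change of 0.38 did not pass (SE 0.30, limma adjusted p 0.441; 0.76 after scaling, adjusted p 0.207). It was 0.16 without uninduced replicate 2 and 0.67 without uninduced replicate 3, or 0.48 and 1.11 after scaling, and did not pass in any of these. Exons of Ddit3 overlap those of Mars on the opposite strand, so with no strand setting stated part of its level is uncertain. The second Ddit3 ID was at 0 to 0.165 TPM.

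Xbp1 (chr11:5520659-5525893), the transcription factor activated by Ern1, had the largest increase of the tested members on the log2(TPM + 1) scale. It was at 41.05, 55.6 and 25.6 TPM in uninduced and 75.3, 120.3 and 106 TPM in induced libraries, so that every induced library was above every uninduced one. The mean was 2.46-fold higher, and Xbp1 rose by 1.32 (SE 0.29, limma adjusted p 0.0186) on the deposited scale and by 1.71 (SE 0.26, adjusted p 0.00807) after scaling. On the deposited scale the call was lost without induced replicate 2 (1.18, limma adjusted p 0.0828) or induced replicate 3 (1.27, adjusted p 0.0587), and after scaling it held without each library in turn (adjusted p up to 0.0373). It was also lost on the deposited scale without the expression filter (limma adjusted p 0.0882) or the variance trend (0.0672). The gene-level value does not separate spliced from unspliced Xbp1.

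The other 4 factors did not pass with all 6 libraries. On the deposited scale Atf3 passed without uninduced replicate 3 (limma adjusted p 0.0401) and Nupr1 without uninduced replicate 2 (0.0405). Atf3, an early stress-induced repressor, was at 9.82, 9.02 and 3.69 TPM and then 2.88, 3.04 and 1.46 TPM, without overlap (change -1.24, SE 0.42, limma adjusted p 0.0881; -0.91 after scaling, adjusted p 0.231). Nupr1, a small stress-induced chromatin protein, was at 19.3, 9.76 and 20.2 TPM and then 8.65, 8.50 and 7.80 TPM, also without overlap (-0.84, limma adjusted p 0.112; -0.47 after scaling, adjusted p 0.463). Cebpb and Cebpg, partners of Atf4, overlapped between groups, with changes of -0.54 each and limma adjusted p of 0.307 and 0.493, and of -0.18 and -0.19 after scaling (0.795 and 0.871). Exons of Cebpb overlap those of Tmem189 on the opposite strand (8.19 to 21.6 TPM). Cebpg ranged from 6.42 to 17.0 TPM in uninduced and from 2.80 to 10.5 TPM in induced libraries.

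None of the 3 feedback regulators passed limma's test on either scale. At an unadjusted p under 0.05 there was 1 on each, Trib3, where 27.9% and 21.8% of all tested genes were. Ppp1r15a (GADD34), which restores translation by recruiting a phosphatase to eIF2, was at 100.4 to 115 TPM in uninduced and 91.6 to 103 TPM in induced libraries (-0.15, limma adjusted p 0.555; 0.25 after scaling, adjusted p 0.279). Trib3, a pseudokinase that restrains Atf4 and Ddit3, was at 13.1, 10.4 and 6.96 TPM and then 22.5, 14.8 and 14.0 TPM. All its induced libraries lay above, and the change was 0.70 (SE 0.31, limma adjusted p 0.167) and 1.07 after scaling (SE 0.28, adjusted p 0.0612). It passed after rescaling to nuclear protein-coding genes (limma adjusted p 0.0418). Ddit4 (REDD1), an inhibitor of mTORC1, overlapped between groups (0.30, limma adjusted p 0.673; 0.65 after scaling, adjusted p 0.355).

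**Figure D2:**
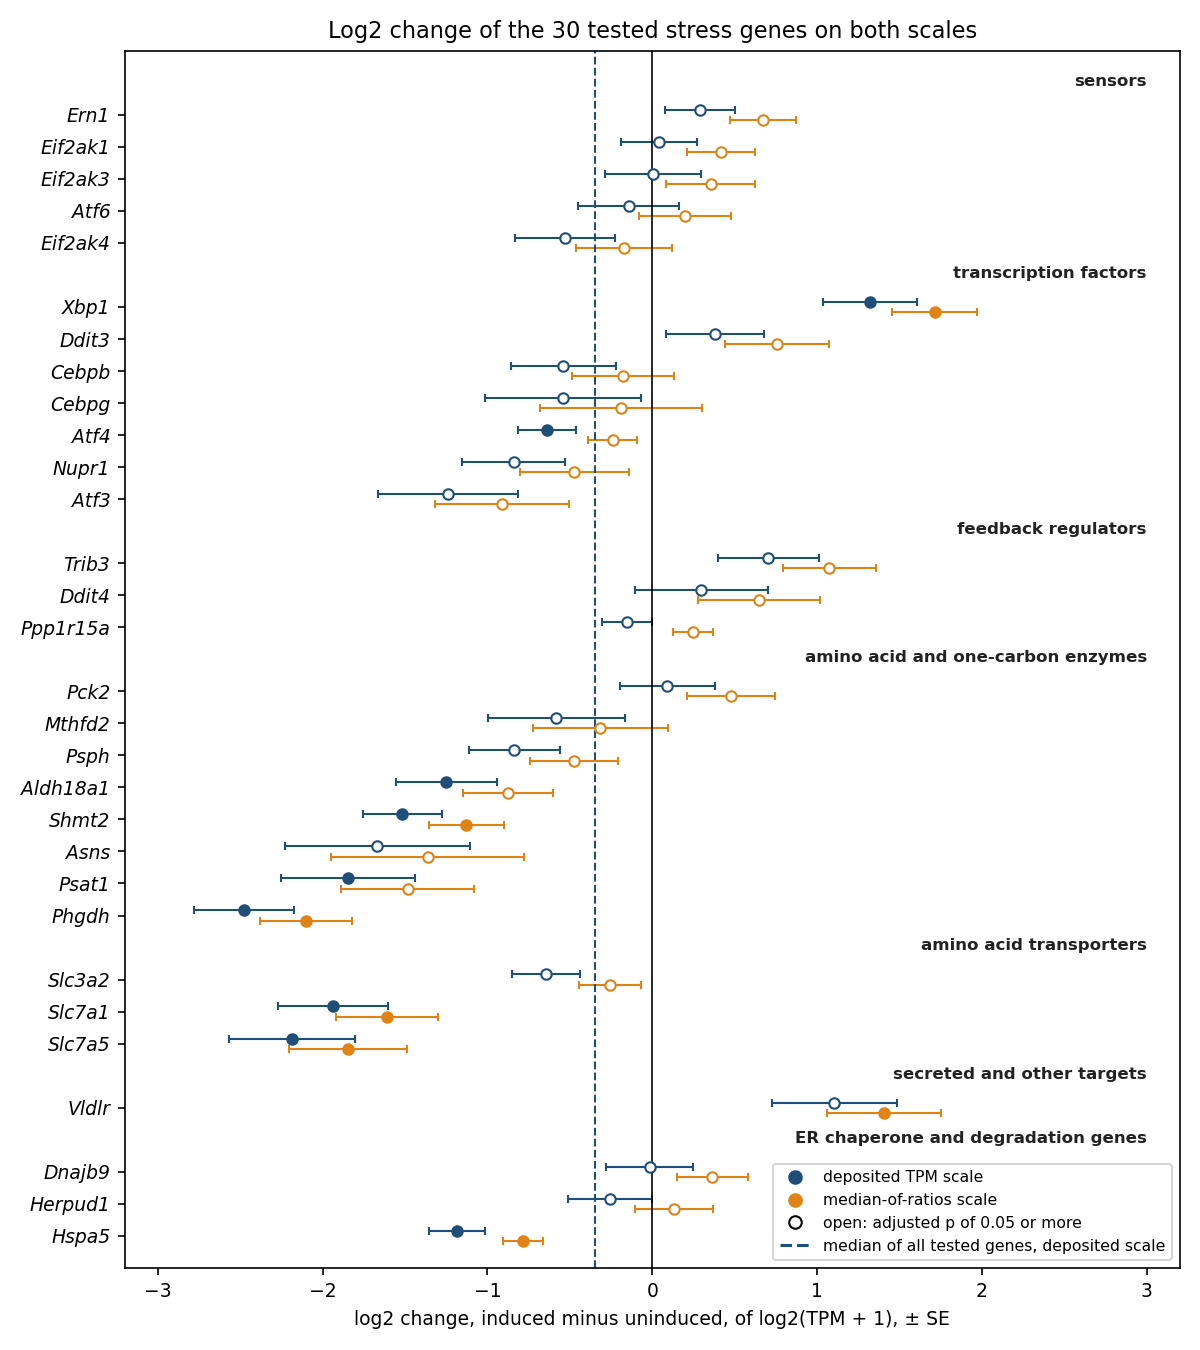
Log2 change (x axis, induced minus uninduced, of log2(TPM + 1), ± SE) of the 30 tested stress genes by role, on the deposited scale (blue) and after median-of-ratios scaling (orange); filled points passed an adjusted p of 0.05, and the dashed line is the median of all tested genes, at -0.35. Xbp1 lies right of 0 and Phgdh, Shmt2, Slc7a5, Slc7a1 and Hspa5 lie left of it with filled points on both scales.

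Serine synthesis from glucose runs through Phgdh, Psat1 and Psph, and Shmt2 then moves the serine carbon into mitochondrial folate. Phgdh (chr3:98313170-98339990) was at 49.1, 50.8 and 47.9 TPM in uninduced and 11.4, 4.63 and 9.55 TPM in induced libraries. The mean was 5.78-fold lower, with a wide gap between groups, and Phgdh fell by 2.48 (SE 0.30, limma adjusted p 0.00185) on the deposited scale and by 2.10 (SE 0.28, adjusted p 0.00455) after scaling. It passed under each of the 11 alternatives with all 6 libraries, and without each library on both scales.

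Phgdh has 17 annotated copies of 90% or higher identity over at least 30% of its transcript, so its reads may be split. The copy with the highest level, Gm7901 (98.8% identity), was at 22.4, 22.3 and 21.8 TPM in uninduced and 6.31, 5.91 and 10.7 TPM in induced libraries, while no other copy exceeded 2.30 TPM. Phgdh and its copies summed to 73.9 ± 0.920 TPM (SD, n = 3) and 16.4 ± 5.17 TPM (SD, n = 3), a 4.52-fold lower mean in induced cells. The lower level was thus present with the copies counted in.

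Psat1 (chr19:15904678-15947337) was at 16.9, 27.6 and 29.3 TPM and then 3.46, 4.75 and 12.0 TPM, without overlap. It fell by 1.85 on the deposited scale (SE 0.41, limma adjusted p 0.0197) and did not pass after scaling (-1.48, SE 0.41, adjusted p 0.0693). The deposited call was lost without uninduced replicate 2 or 3 or induced replicate 1 or 2 (limma adjusted p 0.0582 to 0.0793), when all genes above 0 were tested (0.0936) and without the variance trend (0.0558). Psph was at 11.9 to 13.1 TPM in uninduced and 5.63 to 8.49 TPM in induced libraries, without overlap, and did not pass (-0.84, SE 0.28, limma adjusted p 0.0800; -0.48 after scaling, adjusted p 0.346). Its exons overlap Cct6a on the opposite strand, which was at 57.6 to 209 TPM.

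Shmt2 (chr10:127517123-127522444) was at 57.1, 62.7 and 44.9 TPM in uninduced and 22.7, 19.7 and 13.8 TPM in induced libraries. It fell by 1.52 (SE 0.24, limma adjusted p 0.00528) and by 1.13 after scaling (SE 0.23, adjusted p 0.0248), a 2.93-fold lower mean. The scaled call was lost when any library but induced replicate 1 was left out (limma adjusted p 0.0567 to 0.0753). Mthfd2, the next enzyme of mitochondrial folate, was at 2.35 to 3.44 TPM and then 0.785 to 2.53 TPM, with overlap and no call (-0.58, limma adjusted p 0.401; -0.31 after scaling, adjusted p 0.716).

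Aldh18a1 (chr19:40550257-40588463), which starts proline synthesis, was at 25.1, 25.7 and 15.7 TPM and then 6.19, 8.46 and 11.8 TPM. It fell on the deposited scale by 1.25 (SE 0.31, limma adjusted p 0.0296) and did not pass after scaling (-0.88, adjusted p 0.0987). Leaving out uninduced replicate 1 or 2 or induced replicate 1 or 2 ended the deposited call (limma adjusted p 0.0932 to 0.0969), as did omitting the expression filter (0.0882) or the variance trend (0.0631). Asns, which makes asparagine and carries the ATF element shown above, was at 7.75, 7.35 and 5.49 TPM and then 4.24, 1.83 and 0 TPM. Its change of -1.67 had a wide error (SE 0.56) and did not pass (limma adjusted p 0.0837; -1.36 after scaling, adjusted p 0.220), except without induced replicate 1 on the deposited scale (0.0461). Pck2, the mitochondrial PEP carboxykinase, overlapped (0.092, limma adjusted p 0.868; 0.48 after scaling, adjusted p 0.345).

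Of the 3 tested amino acid transporters, 2 fell on both scales, where 3.21% of all tested genes did. Slc7a5 (LAT1; chr8:121881150-121907694), the importer of large neutral amino acids, was at 18.2, 23.0 and 13.6 TPM in uninduced and 5.21, 1.54 and 3.51 TPM in induced libraries. It fell by 2.19 (SE 0.38, limma adjusted p 0.00728) and by 1.85 after scaling (SE 0.36, adjusted p 0.0203). Slc7a1 (CAT1; chr5:148327410-148399904), the arginine and lysine importer, was at 15.3, 10.4 and 8.66 TPM and then 1.86, 2.06 and 2.63 TPM. It fell by 1.94 (SE 0.33, limma adjusted p 0.00705) and by 1.61 after scaling (SE 0.31, adjusted p 0.0197).

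The means of Slc7a5 and Slc7a1 were 5.34-fold and 5.24-fold lower, and on the deposited scale both calls held without each library. After scaling, the Slc7a5 call was lost when any library but induced replicate 1 was left out (limma adjusted p 0.0540 to 0.0687), and the Slc7a1 call when any but uninduced replicate 2 was left out (0.0546 to 0.0713). Slc3a2, the heavy chain that carries Slc7a5 to the membrane, was at 40.7 to 54.1 TPM and then 26.6 to 36.1 TPM. Its groups did not overlap, and it did not pass (-0.65, SE 0.21, limma adjusted p 0.0731; -0.26 after scaling, adjusted p 0.488).

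Vldlr (chr19:27216484-27254231), a lipoprotein receptor known as an Atf4 target under ER stress, passed the test on the scaled values only. It was at 2.21, 3.05 and 1.10 TPM in uninduced and 4.78, 6.09 and 5.64 TPM in induced libraries, a 2.59-fold higher mean without overlap. The change did not pass on the deposited scale (1.10, SE 0.38, limma adjusted p 0.0893) and did after scaling (1.41, SE 0.35, adjusted p 0.0489). That call was lost without any one library (limma adjusted p 0.0670 to 0.159).

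The 6 members below the expression minimum included several targets known for strong induction in acute stress. Aldh1l2 and Stc2 were listed at 0 in all 6 libraries. Chac1, which degrades glutathione, was listed at 0 in all libraries but uninduced replicate 2 (1.28 TPM). Slc7a11, the cystine importer, was at 0.0117 to 0.824 TPM, Pycr1 at 0 to 0.437 TPM, and Gdf15, a secreted stress hormone, at 0 to 2.94 TPM with the highest value in induced replicate 2.

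In the ER, Hspa5 (BiP; chr2:34771970-34777547), the main ER chaperone, was the most abundant member in each uninduced library. Hspa5 was at 207, 238 and 167 TPM in uninduced and 91.6, 84.0 and 89.7 TPM in induced libraries. The induced libraries lay close together, all far below the uninduced ones, at a 2.31-fold lower mean. Hspa5 fell by 1.18 (SE 0.17, limma adjusted p 0.00400) and by 0.78 after scaling (SE 0.12, adjusted p 0.00992). Like Phgdh, it passed under each of the 11 alternatives with all 6 libraries, and without each library on both scales.

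Herpud1, a component of ER-associated degradation, was at 22.7, 43.1 and 32.9 TPM and then 28.3, 24.2 and 27.3 TPM, with overlap (-0.26, limma adjusted p 0.547; 0.13 after scaling, adjusted p 0.802). Dnajb9 (ERdj4), a BiP co-chaperone and a known target of spliced Xbp1, was at 19.1, 21.8 and 13.5 TPM and then 17.5, 14.5 and 21.4 TPM (-0.017, limma adjusted p 0.976; 0.36 after scaling, adjusted p 0.375). In the same libraries, then, Xbp1 rose, Hspa5 fell and Dnajb9 overlapped between groups.

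Of the 10 members with the ATF element 7 were tested. In limma's test 0 passed lower on either scale and Vldlr passed higher after scaling, with deposited changes from -1.67 to 1.10 and a median of -0.26, or 0.13 after scaling. Of the 21 tested members with a promoter in the table but no such element, 7 passed lower and 1 higher on the deposited scale, with a median of -0.54, and 4 lower and 1 higher after scaling, with a median of -0.19. Over all tested genes 10.2% passed lower on the deposited scale and 3.21% after scaling, and the difference between these 2 groups was not tested. At an unadjusted p under 0.05, 3 of the 7 were lower (Atf3, Asns and Nupr1) and 2 higher on the deposited scale, and 1 lower and 2 higher after scaling, where 24.2% and 3.73%, and then 11.3% and 10.6%, of all tested genes were. Phgdh, Shmt2, Slc7a1 and Psat1 were among those without this sequence in the window, and for Slc7a5 no promoter was given. The search took exact matches in this window only, so elements outside it or with other letters would be missed.

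Other genes of the pathway were read from 3 lists of 70 genes in all, of which 63 were tested. On the deposited scale 21 fell and 0 rose, against 10.2% lower and 1.29% higher over all genes, and after scaling 7 fell and 0 rose, against 3.21% and 2.84%. At an unadjusted limma p under 0.05, 34 were lower and 0 higher on the deposited scale, and 18 lower and 0 higher after scaling. Over all tested genes the unadjusted shares were 24.2% lower and 3.73% higher on the deposited scale, and 11.3% and 10.6% after scaling. The median change of the 63 was -0.73, and -0.36 after scaling. With a library left out, 7 to 10 passed, where 611 to 920 of all tested genes did, or 17 without uninduced replicate 3, where 1276 did. After scaling 1 to 2 passed with a library left out, where 331 to 472 of 13384 to 13557 tested genes did. The lists were then near the share of all genes.

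Of 13 genes of eIF2 and its partners, 3 fell on the deposited scale and 0 passed limma's test after scaling, where 10.2% and 3.21% of all tested genes fell. At an unadjusted p under 0.05, 9 were lower on the deposited scale, where 24.2% of all tested genes were, and 3 after scaling, where 11.3% were. The 3 that fell on the deposited scale, also the 3 lower after scaling, were Eif2s1, the phosphorylated subunit itself (24.7 ± 1.88 and 12.3 ± 1.58 TPM, SD, n = 3 each), Ppp1r15b, the constitutive phosphatase subunit, and Eif2ak2, which encodes PKR. Their deposited changes were -0.95, -1.25 and -1.07 (limma adjusted p 0.0257, 0.0251 and 0.0462), and after scaling -0.57, -0.88 and -0.70 (adjusted p 0.138, 0.130 and 0.172). They were the only calls of that list and were chosen after their values were seen.

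Of 26 other ATF4 targets, 20 were tested, and 8 fell on the deposited scale and 4 after scaling, where 10.2% and 3.21% of all tested genes did. Mthfd1l, a mitochondrial folate enzyme, was at 22.9, 19.0 and 17.5 TPM and then 5.63, 4.22 and 5.34 TPM, and fell by 1.78 (limma adjusted p 0.00432) and by 1.41 after scaling (adjusted p 0.0130). The aminoacyl-tRNA synthetases, which load amino acids onto transfer RNA, made up 12 of the 20, and 5 of these 12 fell on the deposited scale and 3 after scaling, against the same 10.2% and 3.21%. Cars and Mars, for cysteine and methionine, fell by 1.62 and 1.34 (limma adjusted p 0.0131 and 0.0118), and by 1.26 and 0.97 after scaling (adjusted p 0.0370 and 0.0423).

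Of 31 other ER stress genes, 30 were tested, and 10 fell on the deposited scale and 3 after scaling, again against 10.2% and 3.21%. Sdf2l1, a BiP partner, was at 7.38, 11.1 and 15.5 TPM in uninduced and 1.58, 1.54 and 2.04 TPM in induced libraries, a 6.58-fold lower mean (limma adjusted p 0.00639, and 0.0225 after scaling). Hsp90b1 (GRP94), the ER form of Hsp90, was at 168, 206 and 129 TPM and then 89.8, 63.9 and 83.6 TPM (-1.06, limma adjusted p 0.0128; -0.67 after scaling, adjusted p 0.0431). Canx, the lectin chaperone calnexin, was at 139, 149 and 118 TPM and then 71.3, 63.6 and 79.6 TPM (-0.91, limma adjusted p 0.0101; -0.51 after scaling, adjusted p 0.0437). The exact ER stress element was found in 8 of the 52 pathway genes of the 3 lists with a promoter in the table. Of these 7 were tested and 4 fell on the deposited scale, Hsp90b1 and Canx among them, and 2 after scaling, with a median of -0.62. Of the 39 tested without it, 12 fell on the deposited scale and 3 after scaling, with a median of -0.72. Over all tested genes 10.2% and 3.21% fell, and the difference between genes with and without the element was not tested.

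**Figure D3:**
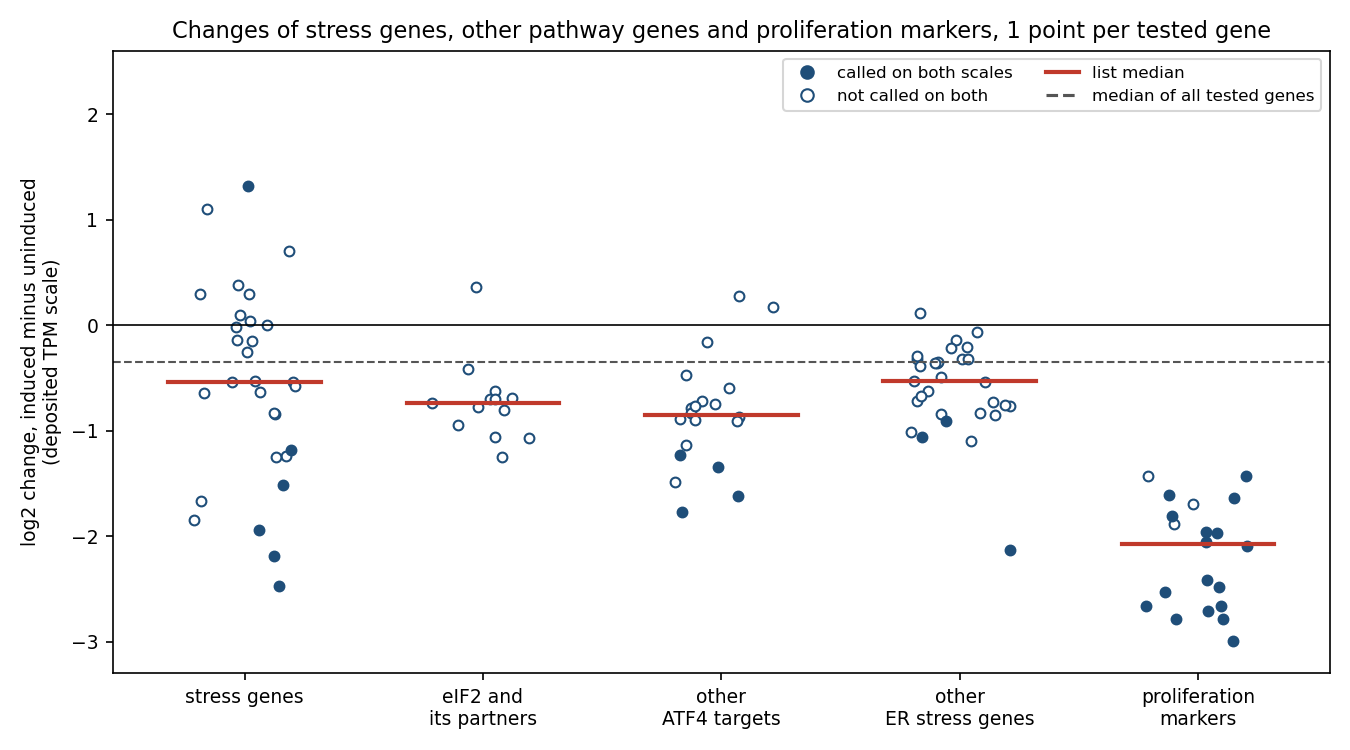
Log2 change (y axis, induced minus uninduced, deposited TPM scale) of each tested gene in the stress gene set, the 3 lists of other pathway genes and the proliferation markers, with the list median (red) and the median of all tested genes (dashed, -0.35); filled points passed on both scales. The stress genes spread from -2.48 to 1.32, while the proliferation markers all lie below -1.4.

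Other transcripts moved in the same libraries. The counts of marker genes that follow stand against 10.2% lower and 1.29% higher of all tested genes on the deposited scale, and 3.21% and 2.84% after scaling. Mki67, a marker of cycling cells, was at 48.0 to 53.2 TPM in uninduced and 6.11 to 7.79 TPM in induced libraries. Of 20 proliferation markers 19 fell on the deposited scale and 17 after scaling, and their summed level was 773 to 929 TPM in uninduced and 176 to 228 TPM in induced libraries. The summed level of the 10 amino acid and one-carbon enzymes was 187 to 226 TPM and 69.0 to 91.6 TPM in the same libraries. Erythroid markers summed to 56.9 to 62.7 TPM and 416 to 479 TPM, with 7 of 9 tested genes higher on both scales. Klf1 overlapped between groups, and Epor was lower in every induced library, at 2.10 to 4.57 TPM and then 0 to 1.45 TPM. Neither passed limma's test (adjusted p 0.260 and 0.0638, and 0.238 and 0.137 after scaling). Most of the induced sum was Hba-a1, Hba-a2, Hbb-bs and Hbb-bt, with induced means of 98.5, 54.6, 177 and 90.6 TPM. The 12 stem cell markers summed to 598 to 739 TPM and 662 to 730 TPM, with 3 lower and 3 higher on the deposited scale and 1 lower and 5 higher after scaling. Myeloid markers summed to 272 to 340 TPM and 267 to 310 TPM, with 1 of 8 tested genes higher in limma's test, or 2 after scaling, and 0 lower (4 at an unadjusted p under 0.05, where 24.2% of all tested genes were, and 0 after scaling, where 11.3% were). Megakaryocyte markers summed to 107 to 143 TPM and 124 to 135 TPM, but single genes moved in both directions: Pf4 and Ppbp rose on both scales and Gp9 fell on the deposited scale. Pf4 was 2.14-fold higher in the mean, Gp9 was 5.64-fold lower, and Ppbp was at 0 to 0.876 TPM in uninduced and 6.64 to 14.6 TPM in induced libraries. Of 12 lymphoid markers 9 were listed at 0 in all libraries and the rest reached at most 0.388 TPM in sum. The part of proliferation and of erythroid, myeloid and megakaryocyte RNA in the stress gene results was not tested.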

How the data were processed

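Total RNA of sorted stem cells was purified with a single-cell kit and made into stranded pico-input libraries, per the labels' protocols. The authors deposited 1 table of TPM with a column per library. bcl2fastq, HISAT2, StringTie and DESeq2 with build GRCm38 are named per the submitters' processing notes. Versions, annotation release, read filters and strand setting are not given in the sources used here. The deposited percent of GC per gene was not used. The table's 60496 rows were summed per gene ID. TPM keeps no depth, so no counting interval was possible.

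limma 3.58.1 in R 4.3.3 was run on log2(TPM + 1) of genes whose mean reached 1 TPM (variance trend, empirical Bayes, two-sided, Benjamini-Hochberg over 13470 genes, threshold 0.05). The pseudocount of 1 understates changes of low genes. Tested on simulated data for this comparison, with 200 of 13470 genes changed, the fit recovered 93% of changes of 2 log2 units and 19% of those of 1, and 6 of 118 calls were false. The changed genes were drawn from those above a set level. The simulated noise was normal and independent, with no shift common to all genes. These rates may therefore not hold for low members or for the real data.

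Members and lists were chosen with earlier results of these data known. Named in full are Eif2ak1, Eif2ak3, Eif2ak4, Ern1, Atf6, Atf4, Ddit3, Xbp1, Hspa5, every member called on either scale and, per pathway list, up to 3 genes in each direction called on both scales. Genes outside this rule were chosen after their values were seen. Coordinates are from GENCODE M21 (GRCm38), promoters from RefSeq (GRCm38.p6; 33 of 36 members matched), and copies were sought with blastn 2.17.0. Alternatives were other pseudocounts (0.1 and 5), filters (none, or a mean of 5 TPM), scalings, weights, no trend, leaving out each library, and a replicate block. The combinations of median-of-ratios scaling with the block or with a library left out were added after seeing the data.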

Additional observations from a re-analysis of the deposited data

How the results depend on the processing

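The count of 1549 genes called over all genes (1375 lower) was 752 without the expression filter, 814 under median-of-ratios scaling (432 lower) and under quantile normalization (440 lower), 886 after rescaling to nuclear protein-coding genes (451 lower) and 767 without the variance trend. Leaving out a library gave 611 to 1276 genes, and 462, 349, 360 and 335, within 331 to 472, after median-of-ratios scaling. The 9 stress genes called became 5 without the filter and 5 without the trend, in both cases with Xbp1 lost, 5 to 8 with a library left out, and 3, 4 or 5 with a library left out after scaling. The 21 calls in the pathway lists became 9 without the filter, 7 under each of the 3 other scalings, 6 without the trend, 7 to 17 with a library left out and 1 to 2 with a library left out after scaling. The marker counts stayed within 1.5 times of 36, at 28 to 33 with a library left out and 26 to 31 after scaling.

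Same-numbered libraries did not deviate together across genes (correlations of 0.0215, -0.0152 and 0.0172). Whether the numbers pair libraries is not known, and with 3 libraries per group these correlations cannot settle it. With the replicate block 902 genes, 7 stress genes and 10 pathway genes passed, and with the block after scaling 456, 6 and 2. Among named members the block ended the calls of Atf4 (limma adjusted p 0.0918) and Aldh18a1 (0.0651) on the deposited scale and of Slc7a1 (0.0572) and Vldlr (0.0875) after scaling, where Psat1 passed with it (0.0386).

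Atf6 changed sign from -0.14 to 0.20 under median-of-ratios scaling, with or without the block, 0.19 under quantile normalization and 0.26 after rescaling, and lay at 0.28, 0.16 and 0.15, within 0.11 to 0.30, with a library left out after scaling. Eif2ak1 (0.040) ranged from -0.061 to 0.12, Eif2ak3 (0.0043) from -0.085 to 0.12 and, after scaling, Eif2ak4 from -0.38 to 0.0016 with a library left out. In such fits Pck2 ranged from -0.16 to 0.32 and Dnajb9 from -0.20 to 0.12 on the deposited scale. After scaling Cebpb ranged from -0.46 to 0.048, Cebpg from -0.55 to 0.31 and Herpud1 from -0.12 to 0.29. Ddit4 kept its sign, at 0.069 to 0.70, and at 0.42 to 1.02 after scaling. None of these passed. Apart from the scalings and the fewer libraries, the cause was not tested. With unknown depth, low members such as Chac1 and Gdf15 allow no statement on detection.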
